A study of Mus musculus with 8 samples.

Results

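The genes described here are the synaptotagmins, synapsins, syntaxins, syntaxin-binding proteins, VAMPs and SNAP-25 relatives, which dock, prime and fuse vesicles with their target membranes. They were chosen by symbol: every gene whose name in the platform's probe annotation begins with Syt, Stx, Stxbp, Vamp or Snap followed by a digit, or is Syn followed by a digit. This gave 52 genes, measured by 114 probes, of 19087 genes with a symbol that were tested and 32042 probes with 1 symbol. All 52 had a value in each of the 4 hybridisations and none was removed by a filter. They were 17 synaptotagmins, 3 synapsins, 14 syntaxins, 6 syntaxin-binding proteins, 7 VAMPs and 5 genes named Snap, of which Snap91 encodes a clathrin adaptor of endocytosis and not a SNARE protein.

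RNA came from the nucleus accumbens, a striatal region of the reward system, of male mice after a short conditioned place preference procedure, which tests how far an animal comes to prefer a place paired with a drug. The cocaine group received 15 mg per kg on each of days 2, 3 and 4, and the saline group had saline solution at those times. The labels give neither strain nor age, nor whether a sample is 1 mouse or a pool. Each of 4 hybridisations on a whole-genome array of long oligonucleotide probes set RNA of 1 cocaine sample against RNA of 1 saline sample, 2 with the cocaine sample in Cy5 and 2 with the saline sample in it, and each was read by an Axon and an Agilent scanner, whose mean was taken as 1 replicate. The study compared the accumbens transcriptome between the 2 treatments.

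A neuron releases transmitter when a vesicle SNARE, a VAMP, zips together with the plasma membrane SNAREs syntaxin and SNAP-25 into a helical bundle that draws the membranes together. Synaptotagmins on the vesicle sense calcium and trigger the last step, Munc18 proteins clasp syntaxin and guide assembly, and synapsins tether the reserve of vesicles to the cytoskeleton. Other members of the same families serve traffic inside the cell, between the endoplasmic reticulum, Golgi, endosomes and lysosomes. In the nucleus accumbens this machinery works in the terminals of glutamate and dopamine inputs, whose mRNA lies in other brain regions, and in the axons of local neurons, whose mRNA is measured here.

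The promoters of 3 members are shown, which hold sequence motifs that bear on neuronal and cAMP-driven transcription. Syn1 and Stxbp3 are the 2 members with the full cAMP response element. Syt10 is 1 of 11 members with its core and has the lowest cocaine coefficient of these. The windows run from 250 bases before to 50 bases after the gene start and come from RefSeq (GRCm38.p6), where 41 of the 52 members had at least 1 window. The 11 without a window were Snap25, Syn3, Syt4, Syt5, Syt7, Syt12, Syt13, Syt17, Vamp2, Vamp3 and Vamp7. Bases in capitals mark the cAMP response element, CRE (TGACGTCA), its core (TGACG) where the full element is absent, and the left arm of RE1 (TTCAGCACC), the element by which the repressor REST silences neuronal genes in other tissues. Syn1 lies on the minus strand at chrX:20920869-20921168, Stxbp3 on the minus strand at chr3:108840453-108840752 and Syt10 on the minus strand at chr15:89841811-89842110.
Syn1: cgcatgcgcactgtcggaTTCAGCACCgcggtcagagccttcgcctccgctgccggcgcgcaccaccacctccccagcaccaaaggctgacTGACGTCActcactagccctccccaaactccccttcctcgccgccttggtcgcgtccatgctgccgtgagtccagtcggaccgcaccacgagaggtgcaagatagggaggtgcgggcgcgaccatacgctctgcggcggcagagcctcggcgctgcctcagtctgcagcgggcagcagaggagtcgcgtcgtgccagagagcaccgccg
Stxbp3: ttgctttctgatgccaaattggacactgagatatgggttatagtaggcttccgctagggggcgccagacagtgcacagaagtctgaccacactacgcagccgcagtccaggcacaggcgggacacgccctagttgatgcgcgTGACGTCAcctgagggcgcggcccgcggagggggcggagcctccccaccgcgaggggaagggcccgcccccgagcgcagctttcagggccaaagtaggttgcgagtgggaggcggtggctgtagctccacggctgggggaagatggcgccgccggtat
Syt10: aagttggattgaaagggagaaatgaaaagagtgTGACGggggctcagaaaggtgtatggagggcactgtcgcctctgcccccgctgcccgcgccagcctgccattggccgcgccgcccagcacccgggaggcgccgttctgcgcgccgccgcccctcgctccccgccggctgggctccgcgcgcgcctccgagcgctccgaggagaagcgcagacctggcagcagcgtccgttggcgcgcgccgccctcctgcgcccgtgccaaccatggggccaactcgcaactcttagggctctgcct
On both strands, the full CRE was found in 2 of the 53 windows of members, those of Syn1 and Stxbp3, and in 1.79% of all 32851 windows. It begins 159 bases before the gene start in Syn1 and 108 bases before it in Stxbp3. The core TGACG, which also counts each full CRE, was found in 12 windows of 11 members and in 20.8% of all windows, and the RE1 arm in the Syn1 window and in 0.371% of all windows. The cocaine coefficients of the 11 members with the core ran from -0.37 (Syt10) to 0.29 (Stxbp2), with a median of 0.0015, against a median of -0.0036 for the 30 other members with a window. A match describes the letters and is not evidence of a bound factor.

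The deposited values are log2 ratios, and a ratio carries no expression level, so neither the level of any member nor the accumbens label could be checked against defining markers. Ratios are given as cocaine over saline. The labels do not state this direction, which is only likely. The Axon minus Agilent difference of each row, which belongs to the dyes, had correlations across rows of 0.514 and 0.517 for hybridisations with the same orientation and of -0.542 to -0.492 for those with opposite ones, so the columns had been turned to 1 direction. Gene names rest on a layout of the table's rows that was found from the data: under it probes of the same accession correlated at 0.521 over 4735 pairs, against -0.013 over 4725 pairs with rows in deposited order. Each scan was centred on its median. Dye-profile values, given beside the centred ones, are the residuals after each scan was also fitted by loess along the dye profile, the mean Cy5 over Cy3 log2 ratio of a probe over the Agilent scans. The cocaine coefficient of a gene is the mean over the 4 hybridisations with the dye effect fitted beside it, given with its limma standard error (n = 4 hybridisations). That standard error is moderated: it joins the gene's own spread with the spread of all genes. A gene was called at a limma adjusted p below 0.05 over all 31334 genes tested, of which 8 were called, 1 higher and 7 lower in cocaine mice. In bulk tissue, fewer cells of a type and less RNA per cell cannot be told apart, and nothing in the labels says whether the hybridisations are separate experiments beyond their separate samples.

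None of the 52 vesicle fusion genes was called (limma, smallest adjusted p = 0.784), beside 0.0255% of all genes (0.00319% higher, 0.0223% lower), and 2 of them, Stx19 and Syt10, had an unadjusted p below 0.05, both below 0, where 6.04% of all genes did (2.8% higher, 3.24% lower). Of the 52 coefficients 25 were above 0 and 27 below, with a median of -0.0055, against 56.6% above 0 and a median of 0.032 over all genes. They ran from -0.44 for Stx19 to 0.30 for Syt12 on the log2 scale. In the median-centred fit the 95% intervals of the main release genes were -0.33 to 0.45 for Syt1 and -0.51 to 0.24 for Stx1a. They were -0.55 to 0.28 for Snap25, -0.47 to 0.27 for Vamp2 and -0.42 to 0.35 for Syn1. These intervals hold for that processing only. In dye-profile values the coefficients were -0.084 ± 0.11 for Syt1, -0.24 ± 0.10 for Stx1a and -0.31 ± 0.13 for Snap25. Vamp2 stood there at -0.20 ± 0.093 and Syn1 at -0.21 ± 0.11.

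**Figure D1:**
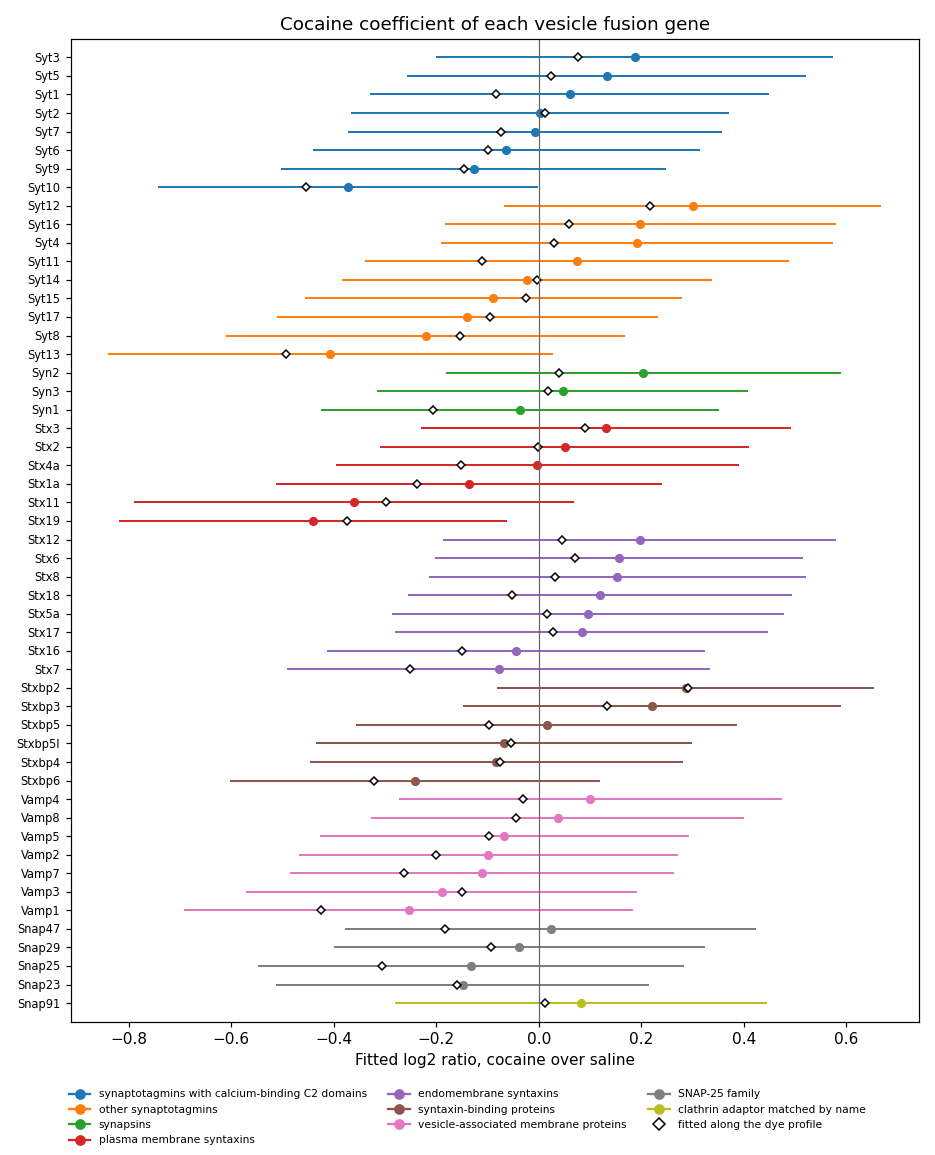
Fitted log2 ratio of cocaine over saline (x axis) for each of the 52 vesicle fusion genes, coloured by class; filled points are the median-centred coefficients with their 95% intervals and open diamonds the coefficients after each scan was fitted along the dye profile. Coefficients run from -0.44 for Stx19 to 0.30 for Syt12, and the intervals that do not include 0 are those of Stx19 and Syt10.

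The calcium-sensing synaptotagmins, whose C2 domains bind calcium and membrane lipid, were split evenly about 0, with 4 of 8 members above 0 and a median of -0.0032 (-0.079 in dye-profile values). Syt1, the fast calcium sensor of synaptic vesicles in forebrain neurons, had centred log2 ratios of 0.72 and 1.51 with cocaine in Cy5, against -0.83 and -1.16 with saline in Cy5. The sign followed the dye and not the treatment, and the coefficient was 0.060 ± 0.18 (limma adjusted p = 0.973). Syt7, a slower sensor linked to asynchronous release and facilitation, had ratios of 0.27 and 0.61 with cocaine in Cy5, against -0.56 and -0.36 with saline in Cy5 and a coefficient of -0.0080 ± 0.17. Syt2, the fast sensor of the hindbrain and of some interneurons, had -0.18 and -0.24 with cocaine in Cy5, against -0.033 and 0.46 with saline in Cy5, all within 0.5 of 0, and a coefficient of 0.0015 ± 0.17. Syt9, another fast sensor found in limbic and striatal neurons, had -0.33 and 0.062 with cocaine in Cy5, against 0.12 and -0.36 with saline in Cy5, for a coefficient of -0.13 ± 0.18. Signs were mixed within each orientation for this gene.

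Syt5, found on dense-core vesicles, had ratios of 0.63 and 1.13 with cocaine in Cy5, against -0.27 and -0.96 with saline in Cy5, and a coefficient of 0.13 ± 0.18. Syt3, found on postsynaptic membranes among others, had 0.83 and 1.0 with cocaine in Cy5, against -0.14 and -0.95 with saline in Cy5 and the highest coefficient of this class, 0.19 ± 0.18. Both genes were above 0 in the cocaine in Cy5 hybridisations and below 0 in the others, so the sign followed the dye. Syt10, a sensor for exocytosis of IGF-1 vesicles in mouse olfactory bulb neurons, had ratios of -0.070 and 0.19 with cocaine in Cy5, against -1.04 and -0.56 with saline in Cy5. The saline in Cy5 values lay far below 0 and the cocaine in Cy5 values close to it. Its coefficient, the lowest of the class, was -0.37 ± 0.18 (95% interval -0.74 to -0.0034, limma adjusted p = 0.822). Syt6, a relative of Syt3 and Syt10 that acts in the sperm acrosome reaction, stood at -0.064 ± 0.18.

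The 9 other synaptotagmins, most of which do not bind calcium through both C2 domains, had a median of -0.023 (-0.025 in dye-profile values), with 4 above 0 and 5 below. Syt13, an atypical form that does not need calcium, had ratios of -0.42 and 0.88 with cocaine in Cy5, against -1.27 and -0.82 with saline in Cy5, so 3 hybridisations lay below 0 and 1 above. Its coefficient, the lowest among them, was -0.41 ± 0.21 (limma adjusted p = 0.834). It was -0.080 without cocaine in Cy5 replicate 1 and -0.73 without cocaine in Cy5 replicate 2. Syt12, a brain form that does not bind calcium and is phosphorylated by protein kinase A, had ratios of 0.92 and 0.77 with cocaine in Cy5, against -0.029 and -0.46 with saline in Cy5, the first pair above 0 and the second below. Its coefficient, the highest of the 52 genes, was 0.30 ± 0.17 (limma adjusted p = 0.858).

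Syt4, an activity-induced form that carries a substitution in the first C2 domain, had ratios of 1.18 and 1.76 with cocaine in Cy5, against -0.84 and -1.33 with saline in Cy5, and a coefficient of 0.19 ± 0.18. Syt17, a trafficking form also called B/K protein, had -0.31 and -0.84 with cocaine in Cy5, against 0.22 and 0.36 with saline in Cy5, the opposite sign pattern, and a coefficient of -0.14 ± 0.18. Both followed the dye, Syt4 towards Cy5 and Syt17 towards Cy3. Syt11, which is linked to Parkin and inhibits endocytosis, stood at 0.074 ± 0.20, Syt16 at 0.20 ± 0.18, Syt14 at -0.023 ± 0.17, Syt15 at -0.089 ± 0.17 and Syt8 at -0.22 ± 0.18.

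Among the synapsins, the phosphoproteins that hold vesicles in the reserve pool, Syn2 had ratios of 1.09 and 1.82 with cocaine in Cy5, against -0.87 and -1.23 with saline in Cy5. Its coefficient, the highest of the 3, was 0.20 ± 0.18 (limma adjusted p = 0.906). Syn1 had ratios of 0.83 and 1.65 with cocaine in Cy5, against -1.19 and -1.43 with saline in Cy5, again split by dye, and a coefficient of -0.037 ± 0.18. Syn3, the form found early in neuronal development and in the extra-synaptic cytoplasm, had -0.084 and 0.0084 with cocaine in Cy5, against -0.015 and 0.28 with saline in Cy5 and a coefficient of 0.046 ± 0.17, although its 6 probes differed widely, as described with the single probes. The class median was 0.046 (0.018 in dye-profile values).

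The plasma membrane syntaxins had a median of -0.070 (-0.19 in dye-profile values), with 2 of 6 members above 0. Stx1a, the neuronal syntaxin of the release complex and a binding partner of monoamine transporters, had ratios of 0.22 and 0.82 with cocaine in Cy5, against -0.69 and -0.90 with saline in Cy5. Its coefficient was -0.14 ± 0.18 (limma adjusted p = 0.936). Stx3, used in ribbon synapses, in neurite growth and in insertion of AMPA receptors at the postsynaptic membrane, had 0.32 and 0.45 with cocaine in Cy5, against -0.015 and -0.23 with saline in Cy5 and a coefficient of 0.13 ± 0.17, the highest of the class, with all 5 of its probes above 0. Stx19, a syntaxin of epithelial cells that lacks a transmembrane segment, had ratios of -1.77 and -1.10 with cocaine in Cy5, against 0.64 and 0.47 with saline in Cy5. These were of opposite sign to those of Stx1a, with a dye effect of -1.0 ± 0.18, the furthest towards Cy3 of the members. Its coefficient, the lowest of the 52 over both scanners, was -0.44 ± 0.18 (95% interval -0.82 to -0.064, limma adjusted p = 0.784). It was -0.76 in the Axon scans alone and -0.12 in the Agilent scans alone, where Syt13 at -0.36 and Syt10 at -0.25 lay lower, and -0.61 to -0.27 with 1 hybridisation left out. Stx11, a syntaxin of cytotoxic lymphocytes, shared this pattern, with a coefficient of -0.36 ± 0.20 and a dye effect of -0.96 ± 0.20. Stx2, epimorphin, stood at 0.051 ± 0.17 and Stx4a, which serves insulin-driven and dendritic exocytosis, at -0.0030 ± 0.19.

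The SNAP-25 family had a median of -0.085 (-0.17 in dye-profile values), with 1 of 4 members above 0. Snap25, which gives 2 of the 4 helices of the neuronal SNARE bundle, had ratios of 0.71 and 1.78 with cocaine in Cy5, against -1.24 and -1.78 with saline in Cy5. Its coefficient was -0.13 ± 0.20 (limma adjusted p = 0.941), and its 3 probes ran from -0.17 to -0.07. Snap23, the widely expressed form that also acts at postsynaptic membranes, had ratios of -0.41 and -0.063 with cocaine in Cy5, against -0.12 and 0.0047 with saline in Cy5, close to 0 in both orientations. Its coefficient was -0.15 ± 0.17. Snap47, found on internal membranes of neurons, had ratios of 1.21 and 2.10 with cocaine in Cy5, against -1.37 and -1.85 with saline in Cy5 and the largest dye effect of the 52 genes, 1.63 ± 0.19 towards Cy5, beside a cocaine coefficient of 0.023 ± 0.19. Snap29, a SNARE of autophagosomes and endosomes, stood at -0.038 ± 0.17.

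The VAMPs, or vesicle SNAREs, had a median of -0.098 (-0.15 in dye-profile values), with 2 of 7 members above 0. Vamp2, synaptobrevin 2, the vesicle SNARE of most forebrain synapses, had ratios of 0.41 and 0.80 with cocaine in Cy5, against -0.64 and -0.97 with saline in Cy5. Its coefficient was -0.098 ± 0.17 (limma adjusted p = 0.952). Vamp1, the form of spinal cord, brainstem and fast-spiking neurons, had 0.56 and 1.71 with cocaine in Cy5, against -2.07 and -1.22 with saline in Cy5 and the lowest coefficient of the class, -0.25 ± 0.21 (limma adjusted p = 0.896). The value of -2.07 was the lowest of any member in a saline in Cy5 hybridisation. Vamp3, cellubrevin, which recycles endosomes in glia and other cells, had -0.87 and -0.41 with cocaine in Cy5, against -0.034 and 0.55 with saline in Cy5 and stood at -0.19 ± 0.18. Vamp4, of the Golgi and of bulk endocytosis, had 0.84 and 1.25 with cocaine in Cy5, against -0.63 and -1.05 with saline in Cy5, and the highest coefficient of the class, 0.10 ± 0.18. Vamp7, the tetanus-insensitive VAMP of lysosome and neurite traffic, stood at -0.11 ± 0.18, Vamp5 at -0.067 ± 0.17 and Vamp8, endobrevin, at 0.037 ± 0.17.

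The 8 syntaxins of internal membranes had the highest median of the classes with several members, 0.11 (0.021 in dye-profile values), with 6 above 0. Stx12, also called syntaxin 13, of recycling endosomes, had ratios of 1.09 and 1.65 with cocaine in Cy5, against -0.71 and -1.24 with saline in Cy5 and a coefficient of 0.20 ± 0.18. Stx7, of late endosomes, had 0.73 and 1.75 with cocaine in Cy5, against -1.12 and -1.67 with saline in Cy5 and the lowest coefficient of the class, -0.079 ± 0.20. The other members, Stx5a and Stx18 of the early secretory route, Stx6 and Stx16 of the trans-Golgi network, Stx8 of endosomes and Stx17 of autophagosomes, ran from -0.045 for Stx16 to 0.16 for Stx6. Of the 8, 7 had a dye effect called towards Cy5, beside 34.5% of all genes.

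The syntaxin-binding proteins had 3 of 6 members above 0 and a median of -0.026 (-0.066 in dye-profile values). Stxbp2, Munc18-2 of granule-secreting blood and epithelial cells, had ratios of -0.13 and 0.33 with cocaine in Cy5, against 0.49 and 0.45 with saline in Cy5, above 0 in 3 of 4 hybridisations. Its coefficient, the highest of the class, was 0.29 ± 0.17 (limma adjusted p = 0.86). Stxbp6, amisyn, a brain protein that competes with VAMPs for the syntaxin and SNAP-25 complex, had 0.29 and 0.38 with cocaine in Cy5, against -0.93 and -0.71 with saline in Cy5, and the lowest coefficient of the class, -0.24 ± 0.17 (limma adjusted p = 0.872). Stxbp5, tomosyn, which restrains priming, had 0.57 and 1.12 with cocaine in Cy5, against -0.76 and -0.87 with saline in Cy5 and stood at 0.016 ± 0.18. Its relative Stxbp5l had -0.22 and -0.53 with cocaine in Cy5, against 0.39 and 0.088 with saline in Cy5, and stood at -0.068 ± 0.17. Stxbp3, Munc18c of the Stx4a complex, whose promoter holds the CRE shown above, stood at 0.22 ± 0.17, and Stxbp4, Synip of the same complex, at -0.083 ± 0.17. Snap91, which encodes AP180 and acts when vesicle membrane is retrieved after fusion, had ratios of 0.37 and 0.71 with cocaine in Cy5, against -0.35 and -0.41 with saline in Cy5 and stood at 0.082 ± 0.17.

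The dye gave larger differences in these genes than the treatment. A dye effect was called for 39 of the 52 (limma adjusted p below 0.05), 33 towards Cy5 and 6 towards Cy3, and for 1 of them in the Axon scans alone. Over all genes, 77.9% were called, 34.5% towards Cy5 and 43.4% towards Cy3. The median fitted dye effect of the members was 0.56 towards Cy5, against -0.19 over all genes. After Snap47 at 1.63, the largest were Syt11 at 1.45, Vamp1 at 1.39 and Snap25 at 1.37. The 6 genes with a dye effect towards Cy3 were Stx19, Stx11, Syt15, Syt8, Vamp3 and Syt17. After centring, none of the 52 genes kept to 1 side of 0 across the 4 hybridisations, where 1.84% of all genes did (1.08% above, 0.766% below). Along the dye profile, the cocaine coefficient of all genes had a median of -0.05 in decile 1 (the most towards Cy3) and of 0.17 in decile 10. The 9 members in decile 10 had a median coefficient of 0.023 and the 29 in deciles 8 to 10 one of 0.060, against 0.14 for all 9390 genes there.

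**Figure D2:**
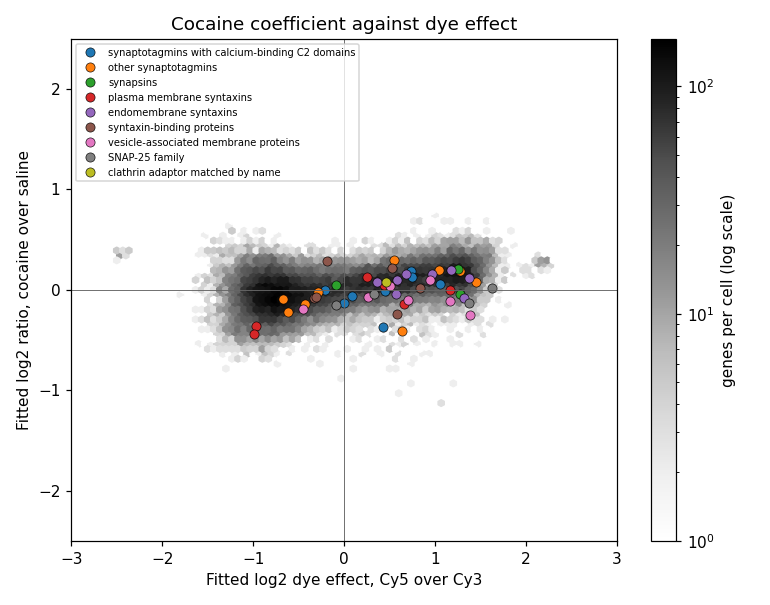
Fitted log2 ratio of cocaine over saline (y axis) against the fitted log2 dye effect of Cy5 over Cy3 (x axis); grey cells count all genes on a log scale within the axis limits and coloured points are the 52 vesicle fusion genes by class. The members lie mostly at a dye effect above 0, with a median of 0.56, while their cocaine coefficients stay between -0.44 and 0.30.

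In dye-profile values, in which that trend is removed by construction, 17 of the 52 coefficients were above 0 and 35 below, with a median of -0.080, against 50.2% above 0 and a median of 0.0006 over all genes. None of the 52 was called (smallest limma adjusted p = 0.67), 0 of all 31300 genes were called (0%), and 2 members had an unadjusted p below 0.05 beside 7.26% of all genes (3.53% higher, 3.73% lower). Those 2 were Syt10 at -0.45 ± 0.14 and Stxbp6 at -0.32 ± 0.12. The signs of Syt1, Syt11, Stx18, Stx2, Stxbp5, Snap47, Vamp4 and Vamp8 were below 0 here and above 0 after centring.

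Of the 52 members, 7 had the same sign in all 4 hybridisations in dye-profile values, 6 below 0 and 1 above, where 19% of all genes did, 9.29% below and 9.73% above. The shared profile ties the orientations together, so 4 of 4 is not 4 independent agreements. Vamp2 was the tightest of these, with -0.24 and -0.18 in the cocaine in Cy5 hybridisations and -0.16 and -0.22 in the saline in Cy5 ones, for a coefficient of -0.20 ± 0.093 (limma adjusted p = 0.67). Its partner Stx1a had -0.42 and -0.14 with cocaine in Cy5, against -0.23 and -0.16 with saline in Cy5, for -0.24 ± 0.10. Stxbp6 had -0.18 and -0.35 with cocaine in Cy5, against -0.60 and -0.17 with saline in Cy5, and Syn1 had -0.45 and -0.064 with cocaine in Cy5, against -0.26 and -0.051 with saline in Cy5, for -0.21 ± 0.11. All of these values lay below 0, as did those of Snap23 and Snap29, while Stxbp2 lay above 0 throughout, with 0.031 and 0.53 with cocaine in Cy5, against 0.35 and 0.26 with saline in Cy5, for 0.29 ± 0.12.

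For other members the dye-profile values differed between hybridisations of the same orientation. Snap25 had -0.61 and 0.016 with cocaine in Cy5, against -0.28 and -0.35 with saline in Cy5, the first of these being the furthest from 0. Syt13 had -1.03 and 0.10 with cocaine in Cy5, against -0.85 and -0.20 with saline in Cy5, and Vamp1 had -0.73 and -0.028 with cocaine in Cy5, against -1.13 and 0.18 with saline in Cy5. Both genes were well below 0 in 1 hybridisation of each orientation and closer to 0 in the other. Stx7 had -0.57 and 0.0070 with cocaine in Cy5, against -0.17 and -0.27 with saline in Cy5. The median over the 52 members was -0.13 and 0.0070 with cocaine in Cy5, against -0.072 and -0.054 with saline in Cy5. Oligodendrocyte markers had dye-profile medians of -0.53 and 0.15 with cocaine in Cy5, against -0.44 and -0.12 with saline in Cy5. In the same order, striatal interneuron markers had -0.19 and -0.11, against -0.16 and 0.063. Cortical projection neuron markers had -0.13 and -0.49, against -0.19 and -0.22. Medium spiny neuron markers had 0.26 and 0.020, against 0.25 and 0.075. Astrocyte markers had 0.045 and 0.031, against -0.16 and 0.020, and microglia markers 0.031 and -0.165, against -0.23 and 0.029. Pvalb, picked after its values were seen, had -1.29 and -0.0049, against -1.97 and 0.014. Other interneuron markers, also picked after their values were seen, went the other way. Th had 0.51 and 0.19, against 0.80 and -0.20, and Slc18a3 had 0.49 and 0.18, against 0.047 and 0.24. Of the 10 interneuron markers, 4 had a dye-profile coefficient above 0 and 6 below. The part of these markers in the members' values was not tested.

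**Figure D3:**
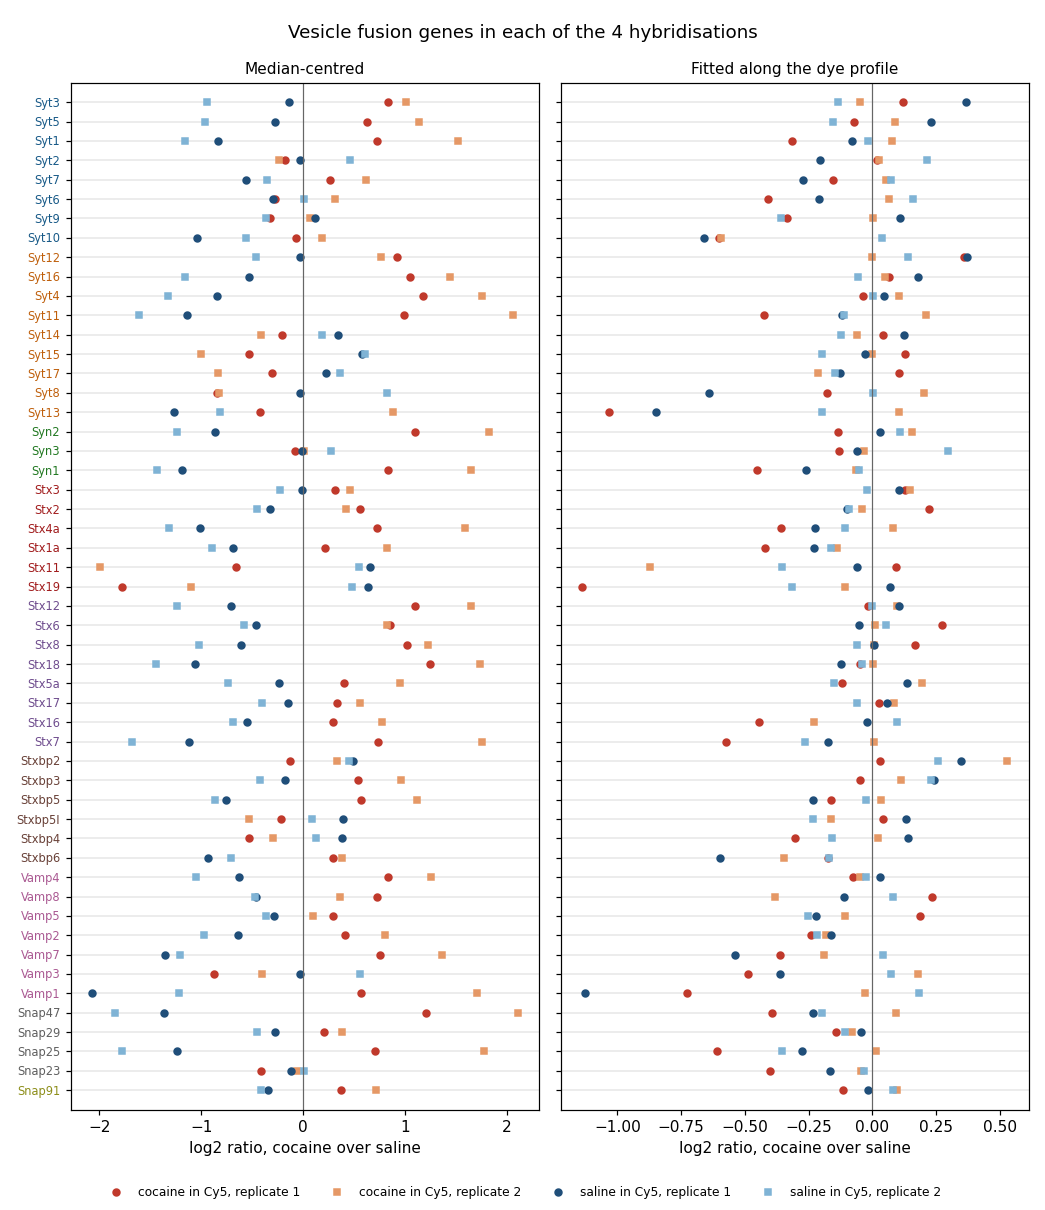
Log2 ratio of cocaine over saline (x axis) of each vesicle fusion gene in each hybridisation, median-centred on the left and fitted along the dye profile on the right; red and orange are cocaine in Cy5, dark and light blue saline in Cy5, circles replicate 1 and squares replicate 2, and gene names are coloured by class. After centring most genes split by dye orientation, and in dye-profile values Syt13 and Vamp1 lie far below 0 in replicate 1 of both orientations.

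Of the 52 genes 34 had several probes, and in 16 of these the probes lay on both sides of 0. The spread between probes was at least 0.5 on the log2 scale for 4 genes, Syn3, Syt13, Stx2 and Stx16. When each of 44289 probes was fitted on its own, 120 were called (0.271%), and 1 of the 114 member probes was among them, with 5 member probes at an unadjusted p below 0.05 beside 2711 of all probes. That probe, designed to the transcript AK084032 of Syn3, had centred ratios of -1.45 and -2.81 with cocaine in Cy5, against 0.74 and 0.28 with saline in Cy5. Its coefficient was -0.81 ± 0.20 (limma adjusted p = 0.0289). The 2 cocaine in Cy5 values differed by more than the coefficient, and the signs followed the dye. In this fit limma's moderated standard error was identical for all probes, so the p-value does not measure the spread of this probe.

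Another Syn3 probe, AK082146, stood at 0.68 ± 0.20 (limma adjusted p = 0.157), and the 4 others ran from -0.08 to 0.29, so the Syn3 mean of 0.046 joins probes that disagree. For Syt13, a probe with a high dye profile stood at -0.73 ± 0.20 (limma adjusted p = 0.103) and its second probe at -0.09. For Syt10 the corresponding values were -0.56 ± 0.20 (limma adjusted p = 0.432) and -0.18, so both Syt10 probes and both Syt13 probes lay below 0. Probes of Syt1, Snap25 and Syn2 lay closer together, from -0.04 to 0.28 over 5 probes, -0.17 to -0.07 over 3 and 0.18 to 0.25 over 3.

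**Figure D4:**
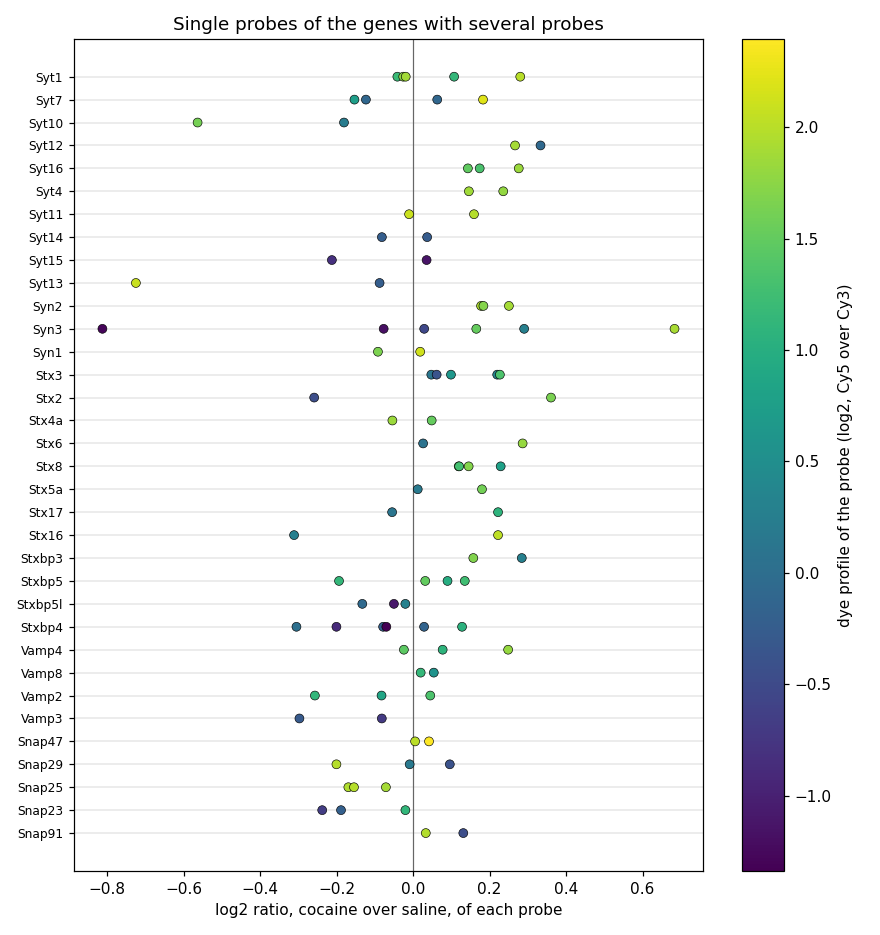
Log2 ratio of cocaine over saline (x axis) of every probe of the 34 vesicle fusion genes with several probes (rows); the colour gives the dye profile of the probe, its mean Cy5 over Cy3 log2 ratio. The 6 Syn3 probes run from -0.81 to 0.68, while the 3 Snap25 probes run from -0.17 to -0.07.

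The other genes of vesicle release that do not carry these names were compared from a list of 48, of which 45 were measured. None was called (limma), beside 0.0255% of all genes, and 4 had an unadjusted p below 0.05, beside 6.04%. Of the 45, 27 were above 0 and 18 below, beside 56.6% of all genes above 0. The median was 0.020, against 0.032 over all genes. The 2 of smallest p were Cadps2, which primes dense-core vesicles, at -0.58 ± 0.17 (limma adjusted p = 0.575) and Sytl1, a Rab27 effector, at -0.50 ± 0.20 (limma adjusted p = 0.784), which was 0.17 in the Agilent scans alone. Cadps2 had ratios of -1.25 and -0.79 with cocaine in Cy5, against -0.22 and -0.048 with saline in Cy5, all below 0, and was below 0 in 4 of 4 dye-profile hybridisations. With the probe of highest dye profile in place of the mean of its 2 probes, an alternative chosen after seeing the data, Cadps2 stood at -1.02 and was called. Its other probe stood at -0.13. In that alternative limma took the spread as equal for every gene, and 105 of all genes were called. In dye-profile values the list had 17 members above 0 and 28 below, with a median of -0.054, where 50.2% of all genes were above 0. There 7 of the 45 had an unadjusted p below 0.05 (limma), beside 7.26% of all genes, and none was called. In all 4 hybridisations 9 of the 45 were below 0 and 2 above, beside 9.29% and 9.73% of all genes.

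The 12 other SNARE proteins, which serve the Golgi, endosomes and the endoplasmic reticulum, were all measured and all had coefficients above 0, with a median of 0.18, and none was called. Over all genes 56.6% were above 0 and 0.0255% were called. Use1, of the endoplasmic reticulum, stood at 0.34 ± 0.18 (limma adjusted p = 0.839) and Vti1b, of late endosomes, at 0.26 ± 0.18 (limma adjusted p = 0.866). These genes lay towards Cy5, with a median dye effect of 0.87. In dye-profile values 9 of the 12 were above 0 and the median was 0.058.

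Markers of cell types were read beside these genes, since nucleus accumbens samples can hold neighbouring tissue. Markers of cortical projection neurons, excitatory cells absent from the nucleus accumbens, were below 0 for 13 of 17 measured genes, with a median of -0.23 (-0.19 in dye-profile values). Of these 3 were called lower in cocaine mice (limma), among them Tbr1 at -1.45 ± 0.18 (adjusted p = 0.00602) and Nrn1 at -1.71 ± 0.24 (adjusted p = 0.0143). The third was Neurod6 at -1.13 ± 0.19 (limma adjusted p = 0.0375). In dye-profile values, where no gene at all was called, they stood at -1.44, -1.76 and -1.07. The 4 cortical markers above 0 were Lamp5 at 0.38 (limma unadjusted p = 0.0495), Bcl11a at 0.17, Rtn4rl1 at 0.095 and Camk2a at 0.094, named here after their values were seen. The medium spiny neuron markers were above 0 for 13 of 13, with a median of 0.30 (0.13 in dye-profile values) and Ppp1r1b at 0.69 ± 0.19 and Adcy5 at 0.61 ± 0.20, none called. Oligodendrocyte markers were below 0 for 10 of 11, with a median of -0.20 (-0.24 in dye-profile values) and Aspa at -0.39 ± 0.19 and Ugt8a at -0.32 ± 0.18.

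Striatal interneuron markers were below 0 for 6 of 10 and above 0 for 4, with a median of -0.089 (-0.15 in dye-profile values), with Pvalb, the parvalbumin of fast-spiking cells, at -0.74 ± 0.26 and Cort at -0.43 ± 0.17. The 4 above 0 were Th at 0.40, Slc5a7 at 0.25, Slc18a3 at 0.19 and Chat at 0.0093, the last 3 of cholinergic cells, named here after their values were seen. Astrocyte markers were above 0 for 5 of 8 and below 0 for 3, or 3 and 5 in dye-profile values, with a median of 0.031 (-0.034 in dye-profile values), with Aldh1l1 at 0.33 ± 0.18 and Aldoc at 0.23 ± 0.18. Microglia markers were likewise above 0 for 5 of 8, or for 1 of 8 in dye-profile values, with a median of 0.022 (-0.089 in dye-profile values), and with Trem2 at 0.23 ± 0.17 and Tmem119 at 0.10 ± 0.17. None of the genes of the marker lists other than the cortical one was called. In either direction, 7 cortical, 5 medium spiny neuron and 2 interneuron markers had an unadjusted p below 0.05 (limma), beside 6.04% of all genes. Of the 7 cortical ones, Lamp5 was above 0. In dye-profile values 6 cortical, 3 medium spiny neuron, 2 interneuron markers and 1 oligodendrocyte marker did, beside 7.26% of all genes. The marker lists shared no gene with the vesicle fusion genes. The part of these markers in the members' values was not tested.

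**Figure D5:**
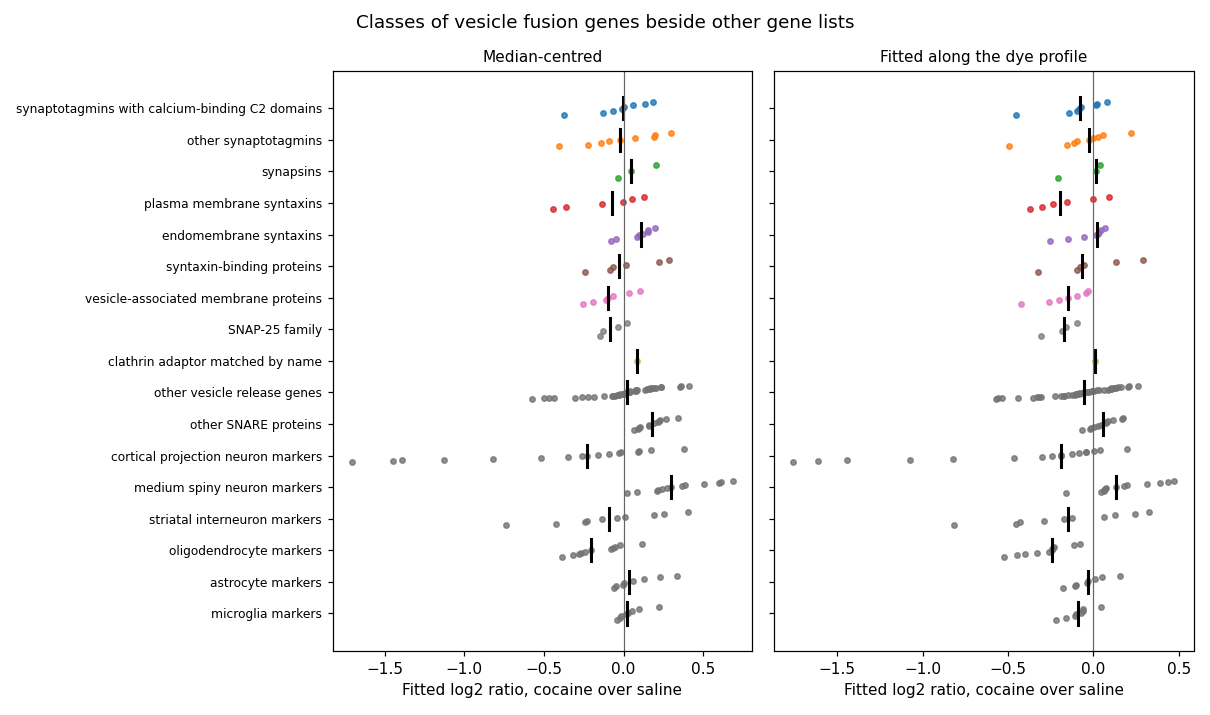
Fitted log2 ratio of cocaine over saline (x axis) of the genes in each class of vesicle fusion genes (coloured rows) and in the lists of other vesicle genes and cell type markers (grey rows), median-centred on the left and fitted along the dye profile on the right; black bars are medians. Class medians after centring run from -0.10 for the VAMPs to 0.11 for the endomembrane syntaxins, while cortical markers reach -1.71.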

How the data were processed

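The deposited table holds log2 ratios of the 2 channels of each scan, made by the authors from images of a GenePix 4000B and an Agilent G6525 scanner, per the labels. How images were analysed, background corrected and values normalized is not given in the sources used here, and the log base was inferred from the values. Each of 8 scans held 44290 rows, with column medians of -0.885 to 0.823 and 4 to 37 stop values, which were treated as missing. The precision is that of 4 hybridisations. The series' design counts 5 measurements, and 4 hybridisations were analysed here.

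Rows were named through the platform annotation under the staggered-grid layout. There were 32042 rows with 1 symbol, 47 with several and 12201 with none. Of the named probes, 31906 matched RefSeq by gene identifier and 0 symbols differed. Rows without a symbol, control spots included, were kept as single probes.

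Each scan was centred on its median, the probes of a gene and then the 2 scans of a hybridisation were averaged, and limma 3.58.1 in R 4.3.3 fitted a cocaine and a dye coefficient (2 residual degrees of freedom), with Benjamini-Hochberg adjustment over all genes. The loess along the dye profile had a span of 0.3 and 4 iterations. The fit was tested on simulated data. P-values measure the spread between these samples, which may be technical. Values per hybridisation were given for called members, for a panel of synaptic genes and for the member of smallest p in each direction in each class, and the 2 genes of smallest p and any called gene were named from each other list. Members, lists and the panel were chosen with earlier results of these data known. The alternatives were the dye-profile loess, equal median absolute deviation of the scans, each scanner alone, each hybridisation left out, the median over probes, no dye coefficient, the saline in Cy5 columns turned, and the lowest 25% of the dye profile left out. The probe of highest dye profile and single probes were added after seeing the data.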

Additional observations from a re-analysis of the deposited data

Results flagged for a closer look

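In 1 of the 52 members a hybridisation stood apart from the other 3. In dye-profile values Syt10 was at 0.037 in saline in Cy5 replicate 2, while its 3 other values lay between -0.66 and -0.59, so that the gap made up 0.905 of the range. Of 52 sets of 4 values tested, chance gives about 2.6 such sets if the 4 values are independent. The shared profile ties the dye-profile values together, so that number does not strictly hold here. Without that hybridisation the centred coefficient of Syt10 was -0.49.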

How the results depend on the processing

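No vesicle fusion gene was called under the dye-profile loess, equal spread of scans, each scanner alone, the median over probes, no dye coefficient, the lowest 25% of the dye profile left out, the probe of highest dye profile, or with any 1 hybridisation left out, and 1 probe of Syn3 was called when each probe was fitted on its own. By the Axon minus Agilent differences given above, the columns had already been turned to 1 direction, so turning the saline in Cy5 columns goes against that check. With the saline in Cy5 columns turned, the cocaine and dye coefficients change places by construction, so that 39 members and 47 other vesicle release and SNARE genes were called, and the medians were 0.56 for all members, 0.44 for the synaptotagmins with calcium-binding C2 domains, 0.54 for the other synaptotagmins, 1.25 for the synapsins, 0.35 for the plasma membrane syntaxins, 0.82 for the endomembrane syntaxins, 0.17 for the syntaxin-binding proteins, 0.71 for the VAMPs, 0.85 for the SNAP-25 family and 0.46 for Snap91. Of the genes named with values per hybridisation and those named from the other lists, the ones that then changed sign were Snap25 at 1.37, Stx1a at 0.65, Stx7 at 1.32, Stxbp2 at -0.18, Stxbp6 at 0.58, Syn1 at 1.27, Syn3 at -0.084, Syt10 at 0.43, Syt13 at 0.64, Syt2 at -0.21, Syt7 at 0.45, Vamp1 at 1.39, Vamp2 at 0.71, Nrn1 at 0.23, Pvalb at 0.65, Cort at 0.12, Aspa at 1.16 and Ugt8a at 0.040. The plasma membrane syntaxin median was -0.19 under the dye-profile loess and -0.21 under equal spread. With the probe of highest dye profile 1 other vesicle release gene, Cadps2, was called, beside 105 of all genes, and limma took the spread as equal for every gene. The dye effect was called for 1 member in the Axon scans alone and for 27 to 36 with 1 hybridisation left out. Among the same genes, signs also changed under the dye-profile loess (Snap47 at -0.18, Stxbp5 at -0.097, Syt1 at -0.084, Vamp4 at -0.031 and Tmem119 at -0.074), equal spread (Snap47 at -0.18, Stxbp5 at -0.10, Syt1 at -0.062, Syt2 at -0.028 and Tmem119 at -0.072), Axon scans (Snap47 at -0.015, Stxbp5 at -0.014, Syn3 at -0.058 and Syt2 at -0.050), Agilent scans (Syt7 at 0.0062, Vamp3 at 0.044 and Sytl1 at 0.17) and the probe of highest dye profile (Syn1 at 0.018, Syt7 at 0.18 and Vamp2 at 0.045). With each hybridisation left out in turn, the median of all members ran from -0.041 to 0.081, and class medians ran from -0.22 to 0.070 for the SNAP-25 family, -0.0032 to 0.17 for Snap91, 0.011 to 0.20 for the endomembrane syntaxins, -0.074 to 0.028 for the other synaptotagmins, -0.13 to 0.015 for the plasma membrane syntaxins, 0.022 to 0.17 for the synapsins, -0.12 to 0.081 for the synaptotagmins with calcium-binding C2 domains, -0.077 to 0.064 for the syntaxin-binding proteins and -0.19 to -0.0021 for the VAMPs. The 16 named members that changed sign ran over Snap25 -0.40 to 0.14, Snap47 -0.20 to 0.25, Snap91 -0.0032 to 0.17, Stx1a -0.29 to 0.014, Stx7 -0.33 to 0.18, Stxbp5 -0.12 to 0.15, Stxbp5l -0.15 to 0.0092, Syn1 -0.24 to 0.17, Syn3 -0.026 to 0.12, Syt1 -0.14 to 0.26, Syt2 -0.12 to 0.12, Syt3 -0.015 to 0.39, Syt5 -0.041 to 0.30, Syt7 -0.095 to 0.079, Vamp1 -0.54 to 0.032 and Vamp4 -0.0045 to 0.21. Of the named members that kept their sign, the coefficients that moved by over 1.5 times ran over Snap23 -0.24 to -0.061, Stx12 0.059 to 0.33, Stx19 -0.61 to -0.27, Stx3 0.077 to 0.18, Stxbp2 0.17 to 0.40, Syn2 0.022 to 0.39, Syt12 0.19 to 0.41, Syt13 -0.73 to -0.080, Syt17 -0.27 to -0.0065, Syt4 0.046 to 0.34, Syt9 -0.25 to -0.0073, Vamp2 -0.19 to -0.0021 and Vamp3 -0.34 to -0.043. Pvalb was called without cocaine in Cy5 replicate 2 or without saline in Cy5 replicate 2. Under the dye-profile loess, equal spread, Axon scans or no dye coefficient no gene at all was called, so Tbr1, Nrn1 and Neurod6 were not, while Tbr1 stayed at -1.59 to -1.44 and Nrn1 at -2.06 to -1.54 there. With 1 hybridisation left out, 66 to 288 of all genes were called, where limma took the spread as equal for every gene. The cause of these changes was not tested. With 4 hybridisations the intervals are wide, such as -0.33 to 0.45 for Syt1. They use limma's moderated standard error, so they draw on the spread of all genes besides each gene's 2 residual degrees of freedom. No paired analysis was possible because replicate numbers were given in accession order and pair nothing across hybridisations, beyond the pairing of 1 cocaine and 1 saline sample that each ratio already holds.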
